A study of Mus musculus with 8 samples.

Results

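The Hox genes, the homeobox genes whose order along 4 chromosomal clusters mirrors the body axis, were examined in cultured osteoblastic cells of the mouse skull. Members were taken by symbol, as Hoxa, Hoxb, Hoxc or Hoxd followed by a number, which gave 39 genes of the 24421 in the files. The 8 libraries hold poly-A RNA of calvarial osteoblastic cells, freed by enzyme digestion from the skull vault of newborn C57/BL6 mice and expanded in culture. The 4 groups are WT and Def6-/- cells, each sampled before (day 0) and at day 12 of culture with ascorbic acid and β-glycerophosphate, and each has 2 libraries. The Def6-/- mice lack Def6, a guanine nucleotide exchange factor of immune cells, in every cell, and the WT cells came from littermates. The libraries of a group are biological replicates by the authors' account, which does not say how animals were divided among them, so p-values measure the spread between these libraries. Def6 had 112 to 186 reads in the WT libraries and 0 to 2 in the Def6-/- libraries. In bulk RNA, fewer cells of a type and less RNA per cell cannot be told apart.

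Hox proteins are transcription factors that give segments of the body axis their identity. Genes at the 3′ end of each cluster, with low paralog numbers, act in the hindbrain and neck, and genes at the 5′ end act in the lumbar, sacral, limb and tail regions. The bones of the skull vault arise from cranial neural crest and head mesoderm in front of the Hox domain, and Hoxa2 is best known for setting the identity of the second branchial arch just behind it. Hox proteins bind DNA with TALE partners such as Pbx and Meis, retinoic acid induces the 3′ genes, and Polycomb proteins keep the unused genes silent.

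Hox transcripts were scarce. All 39 genes together held 455 reads of the 21564785 reads on genes, or 21.1 CPM (reads for every 1000000 reads on genes). Reads fell on 16 genes, and the other 23 had 0 reads in all 8 libraries, which allows each of them up to 0.139 CPM over the 8 libraries together. Detection was therefore 41.03%, beside 68.19% of all genes and 74.53% of genes with a protein-coding symbol. Requiring at least 3 reads in 1 library left 10 genes, and requiring a read in both libraries of 1 group left 13. A single library, with 2414856 to 3482835 reads on genes, allows 0.861 to 1.24 CPM for a gene without reads. Intervals and limits of this kind cover counting error only.

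Most reads fell on 2 stretches of paralog groups. Groups 1 to 4 held 58.9% of the Hox reads, groups 8 and 9 held 38.24%, groups 5 to 7 held 1.099% and groups 10 to 13 held 1.758%. Groups 6, 10, 11 and 12 had no reads at all. The Hoxb cluster took 193 reads on 5 of its 10 genes, and the Hoxd cluster 186 reads on 4 of 9. The Hoxa cluster had 68 reads on 6 of 11 genes. The Hoxc cluster, with 9 genes, had 8 reads, all of them on Hoxc13. Most Hoxb reads lay on Hoxb2, Hoxb3 and Hoxb4, toward the 3′ end, though Hoxb8 and Hoxb9 on the 5′ side also had a few. Most Hoxd reads lay on Hoxd8 and Hoxd9, in the middle of the cluster, with fewer on Hoxd3 and Hoxd4 on the 3′ side. Hoxc13 is the most 5′ gene of Hoxc.

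**Figure D1:**
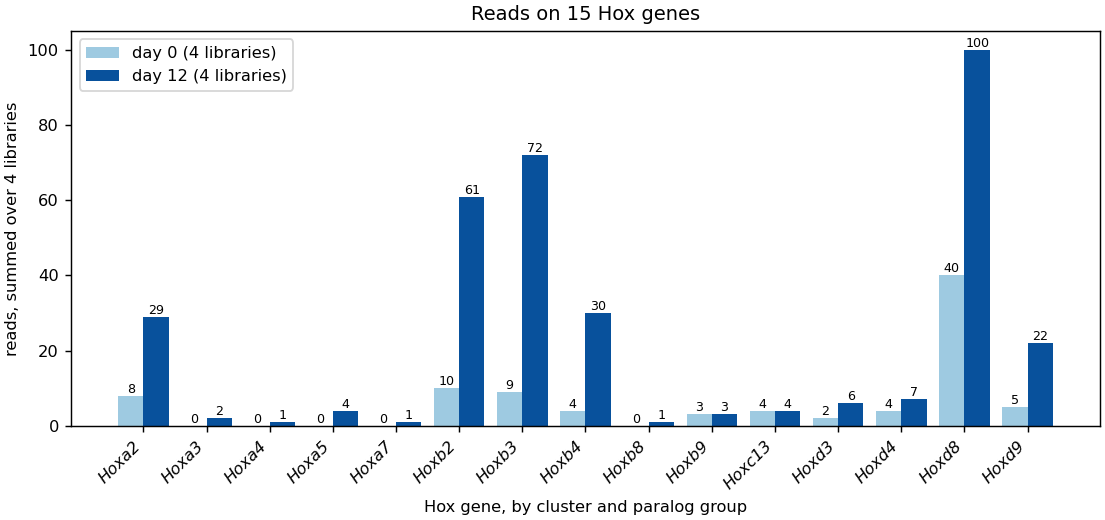
Reads (vertical axis) on 15 Hox genes, summed over the 4 day 0 libraries (light bars) and the 4 day 12 libraries (dark bars), in order of cluster and paralog group (horizontal axis). Hoxd8 is highest at both times, at 40 and 100 reads, and Hoxb3 and Hoxb2 follow it at day 12.

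Hoxd8, at chr2:74704615-74707933 on the plus strand of mm10, was the Hox gene with the most reads, 140 in all, and the only one with more than 81. Per kb of exon it also led the family, at 2.37 normalised CPM (relative to reads on genes, with composition factors) averaged over the 8 libraries, followed by Hoxa2 at 0.974, Hoxb2 at 0.951 and Hoxb3 at 0.897. These levels stood below most other detected genes, with 42.84% of 16508 detected genes lower than Hoxd8 and 30.53% lower than Hoxa2. At day 12 the per-kb level of Hoxd8 was 2.75 to 4.34 over the 4 libraries, above the range of every other member. Hoxb2, Hoxb3 and Hoxa2 had ranges there of 1.22 to 2.12, 1.31 to 1.93 and 0.944 to 2.31, so these neighbours in the order overlapped. Hoxb4 (0.49 to 1.90) and Hoxd9 (0.588 to 1.35) overlapped them in turn.

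Sequences just before the start of transcription are shown for 3 members that had reads on chromosomes 2, 6 and 11, and for Hoxd10, the 5′ neighbour of Hoxd9, which had none. They are the 250 bases before the RefSeq start in GRCm38.p6, the build of mm10, read 5′ to 3′ on the gene's strand, with every CG pair in capitals, since unmethylated CG-rich stretches are the sites where Polycomb proteins gather. Hoxd8 is at chr2:74704365-74704614 (plus strand), Hoxd10 at chr2:74691641-74691890 (plus), Hoxa2 at chr6:52164832-52165081 (minus) and Hoxb4 at chr11:96318017-96318266 (plus).
Hoxd8: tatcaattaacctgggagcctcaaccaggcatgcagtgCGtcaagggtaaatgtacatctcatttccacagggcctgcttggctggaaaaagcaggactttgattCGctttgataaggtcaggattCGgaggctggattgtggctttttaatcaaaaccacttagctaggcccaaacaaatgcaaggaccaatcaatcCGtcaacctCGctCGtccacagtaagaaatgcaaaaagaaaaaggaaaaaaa
Hoxa2: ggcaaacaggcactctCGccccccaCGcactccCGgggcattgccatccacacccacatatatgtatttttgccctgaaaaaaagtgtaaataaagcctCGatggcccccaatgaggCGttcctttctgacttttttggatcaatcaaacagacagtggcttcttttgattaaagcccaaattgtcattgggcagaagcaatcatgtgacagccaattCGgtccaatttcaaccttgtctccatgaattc
Hoxb4: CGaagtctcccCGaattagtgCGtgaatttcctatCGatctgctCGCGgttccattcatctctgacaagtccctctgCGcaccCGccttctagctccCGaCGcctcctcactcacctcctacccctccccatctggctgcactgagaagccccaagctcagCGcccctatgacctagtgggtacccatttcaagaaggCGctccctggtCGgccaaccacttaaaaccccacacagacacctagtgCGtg
Hoxd10: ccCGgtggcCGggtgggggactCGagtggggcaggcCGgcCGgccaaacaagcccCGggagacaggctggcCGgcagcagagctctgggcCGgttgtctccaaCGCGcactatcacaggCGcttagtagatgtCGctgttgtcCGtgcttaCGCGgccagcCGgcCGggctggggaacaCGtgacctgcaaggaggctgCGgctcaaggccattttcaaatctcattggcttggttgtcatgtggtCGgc
The Hoxd8 and Hoxa2 windows hold 6 CG pairs each, the Hoxb4 window 14 and the Hoxd10 window 20. RefSeq windows were at hand for 24 starts of 22 members. Their median was 12 CG pairs for the 10 starts of members with reads and 16.5 for the 14 starts of members without, beside 6 over all 32841 windows. The letters TGATNNAT, a form of the site bound jointly by Pbx and Hox proteins, were found on either strand in 4 of the 24 windows, Hoxa2 among them, and in 7.686% of all windows. CCAAT, the core of a common promoter element, was in 14 of the 24 and in 33.86% of all windows. These matches are descriptions of the letters and not binding sites.

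After 12 days in osteogenic medium the Hox share was higher than at day 0 in both genotypes. The Hox share, as CPM of reads on genes, was 12.8 and 8.96 in WT day 0, 36.2 and 25.3 in WT day 12, 10.1 and 7.91 in Def6-/- day 0, and 38.8 and 25.7 in Def6-/- day 12. Every day 12 library was above every day 0 library, and the genotypes overlapped at day 12. The number of members with a read moved less. It was 10 and 10 in WT day 0, 13 and 10 in WT day 12, 7 and 8 in Def6-/- day 0, and 10 and 11 in Def6-/- day 12, and thinning to the smallest library would leave 6.81 to 11.8 of them.

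By cluster, Hoxb differed most between the times, from 26 reads over the day 0 libraries to 167 over those of day 12. Its libraries held 9 and 6 reads in WT day 0, 62 and 32 in WT day 12, 8 and 3 in Def6-/- day 0, and 47 and 26 in Def6-/- day 12. Hoxd had 51 reads at day 0 and 135 at day 12, and Hoxa 24 and 44. Hoxc had 4 reads at each time.

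Hoxb3, which helps pattern the hindbrain and the pharyngeal arches (chr11:96323326-96347930, plus strand), had 1 and 2 reads in WT day 0, 22 and 17 in WT day 12, 5 and 1 in Def6-/- day 0, and 20 and 13 in Def6-/- day 12. No day 12 library came near a day 0 library. Reads rose 11.9 times in WT (95% exact counting interval 3.78 to 60.1) and 6.44 times in Def6-/- (2.67 to 18.8). On the log2(CPM + 1) scale, which understates changes of low genes, Hoxb3 rose by 2.32 ± 0.44 (SE, n = 2 against 2) in WT (limma adjusted p = 0.00694) and by 1.98 ± 0.44 in Def6-/- (limma adjusted p = 0.0150). It was the 1 member called in WT, where 12.7% of the 12348 genes tested were called higher. Leaving out WT day 12 replicate 1 or 2 took the limma adjusted p to 0.0556 and 0.0580. In Def6-/- it became 0.1035 without day 0 replicate 2, 0.114 without day 12 replicate 1 and 0.0527 without day 12 replicate 2, with rises of 1.43 to 2.23. Over 52.9% of the Hoxb3 exon bases lie opposite Hoxb3os, an antisense RNA, and the strand setting of the counting is not given in the sources used here. Reads of Hoxb3os could therefore be counted on Hoxb3, which was not tested.

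Hoxb2, a gene of the hindbrain segments (chr11:96350525-96354012, plus strand), had 6 and 2 reads in WT day 0 and 21 and 12 in WT day 12. In Def6-/- it went from 2 and 0 reads to 18 and 10. All day 12 libraries were above all day 0 libraries. Relative to day 0, the reads at day 12 were 3.77 times as many in WT (95% exact counting interval 1.71 to 9.44) and, from 2 reads, 16.4 times as many in Def6-/- (4.13 to 142). The limma change was 2.33 ± 0.47 in Def6-/- (adjusted p = 0.0105) and 1.44 ± 0.47 in WT (limma adjusted p = 0.0691). The Def6-/- value went to an adjusted p of 0.0844 in limma without day 0 replicate 2 and 0.0919 without day 12 replicate 1. The WT value passed at 0.0213 without WT day 0 replicate 1, when 15.4% of tested genes were called higher. That library stands apart with 34.9% of its reads placed at several sites against 21.4% to 26.6% in the others. Of the Hoxb2 exon bases, 27.3% lie opposite Hoxb3os, whose reads could be counted here as well.

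Hoxb4, a gene of the neck vertebrae and of blood stem cells (chr11:96318267-96321638, plus strand), had 2 and 1 reads in WT day 0, 17 and 3 in WT day 12, 0 and 1 in Def6-/- day 0, and 7 and 3 in Def6-/- day 12. WT day 12 replicate 1 alone gave 17 of its 34 reads. The read ratio of day 12 to day 0 was 6.09 in WT (95% exact counting interval 1.81 to 32.01) and 11.7 in Def6-/- (1.67 to 508), where day 0 had 1 read. In the limma fit neither change passed, at 1.23 ± 0.54 in WT (adjusted p = 0.153) and 1.36 ± 0.54 in Def6-/- (adjusted p = 0.128).

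Hoxa2 (chr6:52162417-52164831, minus strand) had 1 and 4 reads in WT day 0, 9 and 4 in WT day 12, 2 and 1 in Def6-/- day 0, and 10 and 6 in Def6-/- day 12. In normalised CPM the highest day 0 library, at 1.41, was just below the lowest day 12 library, at 1.68. Reads rose 6.25 times in Def6-/- (95% exact counting interval 1.79 to 33.4) and the WT ratio was 2.38 (0.795 to 8.51). The limma change was 1.48 ± 0.44 in Def6-/- (adjusted p = 0.0498), at the edge of the threshold, and 0.75 ± 0.44 in WT (limma adjusted p = 0.268). Without any 1 of the 4 Def6-/- libraries the limma adjusted p in Def6-/- was 0.105 to 0.241. Leaving out WT day 12 replicate 1 or 2, which enter that comparison only through the shared spread and scaling, gave 0.0810 and 0.0732. The call was also lost with pseudocounts of 0.1 and 5, on the CPM as deposited, with a replicate block and with edgeR and DESeq2 on recovered reads, at adjusted p of 0.0550 to 0.190.

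Hoxd8, a gene of the middle of the Hoxd cluster, had 11 and 4 reads in WT day 0 and 35 and 18 in WT day 12. In Def6-/- it had 14 and 11 reads at day 0 and 29 and 18 at day 12. It was thus the member most present before differentiation, with 40 of the 105 Hox reads of day 0. Its day 12 libraries, at 7.54 to 11.9 normalised CPM, stood above its day 0 libraries, at 1.41 to 5.27. The read ratio was 3.23 in WT (95% exact counting interval 1.79 to 6.17) and 2.20 in Def6-/- (1.33 to 3.73). Neither limma change passed, at 1.44 ± 0.44 in WT (adjusted p = 0.0517) and 0.96 ± 0.44 in Def6-/- (adjusted p = 0.180). The WT change passed without WT day 0 replicate 1, at an adjusted p of 0.00467 in limma. The Def6-/- change passed, at 0.0487 and 0.0433, without WT day 0 replicate 1 or 2, neither of which is a Def6-/- library, and 19.9% and 20% of tested genes were then called higher in Def6-/-.

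Hoxd9, the 5′ neighbour of Hoxd8 (chr2:74697727-74700208, plus strand), did not reach the level needed for testing. It had 1 and 2 reads in WT day 0, 9 and 3 in WT day 12, 1 and 1 in Def6-/- day 0, and 7 and 3 in Def6-/- day 12. Its read ratio was 3.65 in WT (95% exact counting interval 0.986 to 20.2) and 5.86 in Def6-/- (1.25 to 55.0). Hoxd4 (chr2:74711929-74729160, plus strand) had 0 to 3 reads in each library, 11 in all, and its time points overlapped in Def6-/-. Over 52.3% of its exon bases are shared on the same strand with Hoxd3 and another transcript, so reads there could be lost or split between them.

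**Figure D2:**
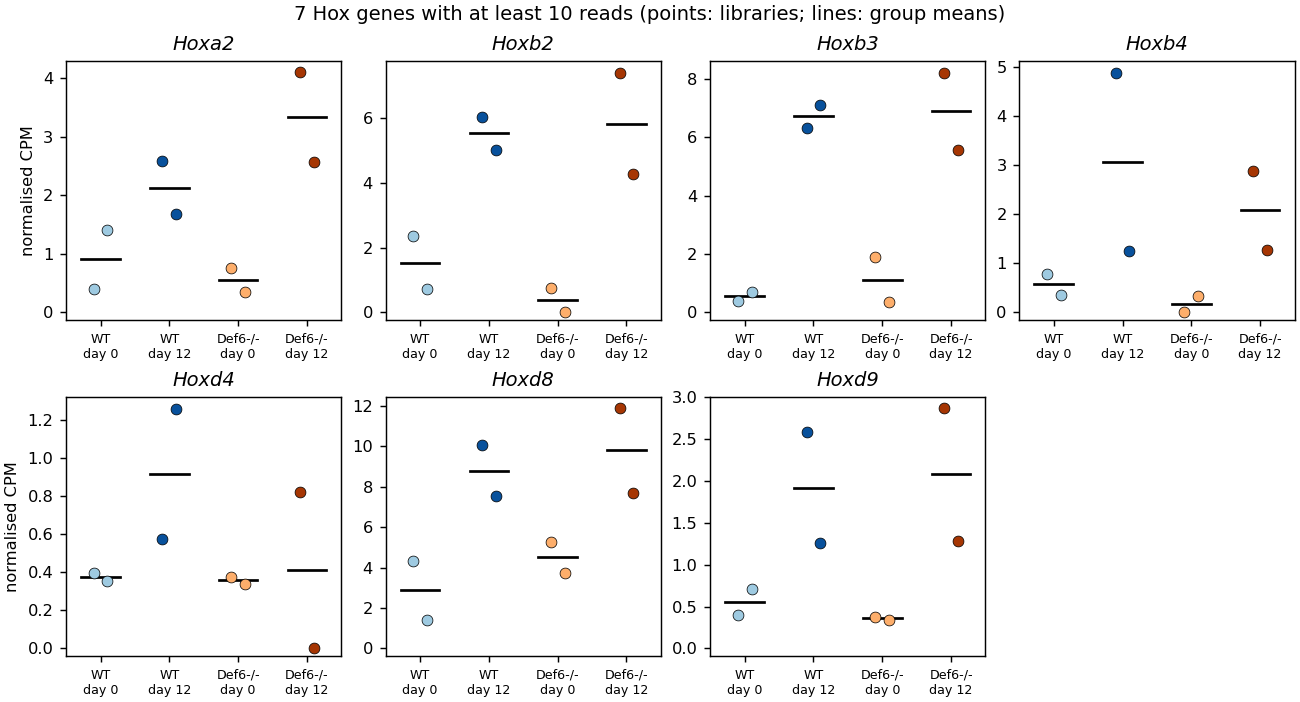
Normalised CPM (vertical axis, a separate scale for each gene) of 7 Hox genes with at least 10 reads in the 4 groups; points are libraries, 2 a group, and lines are group means. Hoxa2, Hoxb2, Hoxb3, Hoxb4, Hoxd8 and Hoxd9 have all day 12 points above the day 0 points of the same genotype.

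A further 8 members held 8 reads or fewer each. Hoxd3 had 8 reads, with 2 at day 0 and 6 at day 12, and shares 62.3% of its exon bases with Hoxd4 and another transcript of the same strand. Hoxc13, a gene of hair and nails, had 8 reads in 3 libraries, 3 and 1 in WT day 0 and 4 in Def6-/- day 12 replicate 2. Hoxb9 had 6 reads in 5 libraries and Hoxa5 had 4, all in WT day 12. Hoxa3 had 2 reads, 1 in each Def6-/- day 12 library, and Hoxa4, Hoxa7 and Hoxb8 had 1 each. The members just inside and just outside the limit of 10 reads were Hoxd4 with 11 and Hoxd3 and Hoxc13 with 8.

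Taking the 8 members with at least 10 reads, 7 in WT and 6 in Def6-/- had both day 12 libraries above both day 0 libraries. Such separation was common, at 29.3% of tested genes in WT and 35.2% in Def6-/-. Only Hoxa2, Hoxb2, Hoxb3, Hoxb4 and Hoxd8 reached a mean deposited CPM of 1 in a group, the level for testing, and the first 4 of them did so through day 12 alone, so the counts of calls below describe these genes and are no support for a change of the family. limma called 1 of the 5 higher at day 12 in WT and 3 in Def6-/-, where 12% of tested genes were called higher. It called 0 of the 5 lower in either, where 5.64% of tested genes were called lower in WT and 4.79% in Def6-/-. A fit that averaged the change over both genotypes, added after the data were seen, called all 5 higher, with changes of 1.12 to 2.15 and adjusted p of 0.000895 to 0.0302 in limma, beside 19.3% of tested genes. The quasi-likelihood test of edgeR on recovered reads without a filter, also added later, tested all 16 detected members. It called Hoxb3 (edgeR adjusted p = 0.00156) and Hoxd8 (edgeR adjusted p = 0.0279) in WT, with 10.0% of 16652 genes called higher. In Def6-/- it called Hoxb2 (edgeR adjusted p = 0.00332) and Hoxb3 (edgeR adjusted p = 0.00861), with 9.15% called higher.

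**Figure D3:**
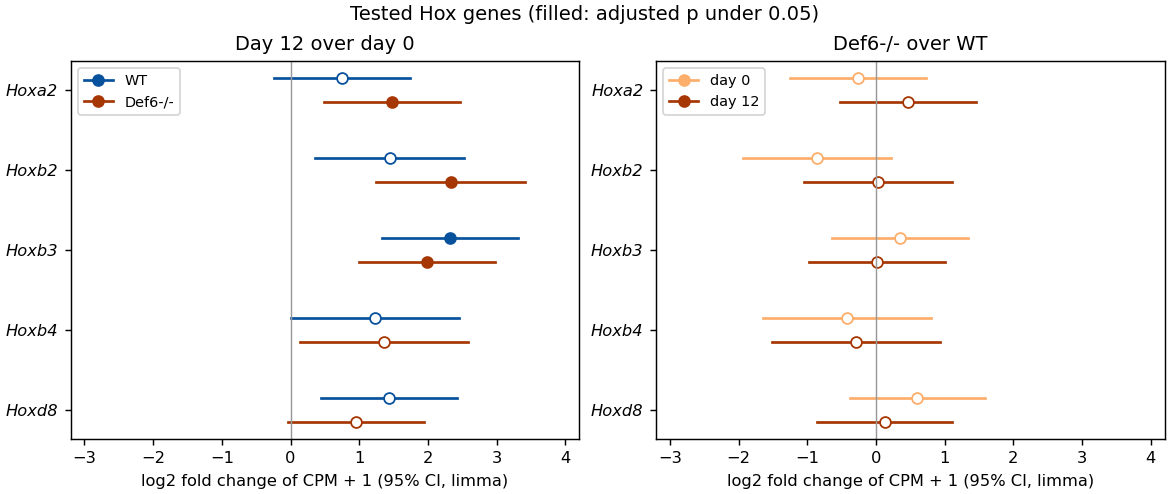
Log2 fold changes of CPM + 1 (horizontal axis) with 95% limma confidence intervals for the 5 tested Hox genes, day 12 over day 0 in each genotype (left) and Def6-/- over WT at each time (right); filled points have an adjusted p under 0.05. The day 12 changes of 0.75 to 2.33 lie right of 0, with intervals that cross 0 for Hoxa2 in WT and Hoxd8 in Def6-/-, and every interval of the genotype comparison crosses 0.

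Between the genotypes no Hox gene passed the test. The rule followed the study, an unadjusted p under 0.05 with a change of more than 1.2-fold, and called 2.30% of tested genes at day 0 and 1.40% at day 12, with 1 gene called after adjustment at each time. limma called 0 of the 5 Hox genes at either time, as did edgeR and DESeq2 on recovered reads. The smallest p was that of Hoxb2 at day 0 before adjustment (limma adjusted p = 0.908), with a change of -0.86 ± 0.47 between 2 reads in Def6-/- and 8 in WT. At day 12 the log2 changes of Def6-/- over WT were 0.46 for Hoxa2, 0.03 for Hoxb2, 0.01 for Hoxb3, -0.29 for Hoxb4 and 0.12 for Hoxd8. The interval for Hoxb3 ran from -0.98 to 1.0 and that for Hoxd8 from -0.86 to 1.11. Wider still were those for Hoxb4, from -1.52 to 0.93, and Hoxa2, from -0.53 to 1.45. On this scale of log2(CPM + 1), with 2 libraries a group, differences of about 2-fold are thus not excluded. For Hoxb4 and Hoxa2 larger ones are not excluded either. In reads, the ratio of Def6-/- to WT at day 12 was 1.04 for Hoxb3 (95% exact counting interval 0.634 to 1.70), 1.04 for Hoxb2 (0.607 to 1.78) and 1.09 for Hoxd8 (0.72 to 1.65). The day effect did not differ between genotypes by the interaction test for any of the 5 (limma, 0 calls at an unadjusted p under 0.05, with 1.13% of tested genes called), and the smallest interaction p was that of Hoxb2 (0.219 in limma). Without WT day 0 replicate 1, Hoxd8 was called higher in Def6-/- at day 0, when 4.45% of tested genes were called. Without WT day 0 replicate 2, Hoxb2 was called lower, when 37.1% of tested genes were called.

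The RNAs transcribed within the clusters were few as well. Hotairm1, a long noncoding RNA of the Hoxa cluster, had 42 reads, with 11 and 2 in WT day 0, 9 and 5 in WT day 12, 1 and 6 in Def6-/- day 0, and 4 and 4 in Def6-/- day 12, and its time points overlapped in both genotypes. At day 12 both WT libraries were above both Def6-/- libraries. Such separation was common, as 1960 of the 12348 tested genes showed it in this direction and 2078 in the other. Hoxaas2, an antisense RNA of that cluster, had 1 and 0 reads in WT day 0, 5 and 6 in WT day 12, 0 and 1 in Def6-/- day 0, and 4 and 2 in Def6-/- day 12, so its day 12 libraries were the higher ones. Neither reached the level for testing. Hoxa11os and Hoxd3os1 had 1 read each. Evx1 and Evx2, the homeobox genes beside Hoxa and Hoxd, had 0 reads in all 8 libraries, as did Hotair, Hottip, Haglr, Hoxaas3, Hoxb5os and the precursors of the miR-10 and miR-196 genes, which a poly-A library measures poorly.

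The genes around the clusters were read in these cells. Of 40 protein-coding neighbours, the 5 nearest on each side of each cluster outside the Hox and Evx genes, 38 had reads and 35 had at least 10. Their median level was 4.71 normalised CPM per kb, and 27 of the 40 stood above Hoxd8. Nfe2l1, a transcription factor gene 449.2 kb beyond Hoxb, had 478 ± 23.6 normalised CPM in WT day 0 and 373 ± 18.1 in WT day 12 (SD, n = 2), and Hnrnpa2b1, an RNA-binding protein gene 685.7 kb from Hoxa, had 394 ± 15.4 and 385 ± 18.6. Ube2z, 128.9 kb before Hoxb, had 224 ± 21.3 and 186 ± 6.36. Ttll6 and Calcoco2, the nearest genes before Hoxb at 28.9 and 82.4 kb, had 0 reads. Of the 32 neighbours tested, limma called 3 higher and 1 lower at day 12 in WT and 6 higher and 1 lower in Def6-/-. The median changes were -0.10 and -0.12. Among all tested genes, 12.7% were called higher and 5.64% lower in WT, and 12% and 4.79% in Def6-/-. Skap2, a neighbour of the Hoxa cluster at 143 kb and an adaptor of blood cells, rose by 1.14 in WT and 1.22 in Def6-/- (limma adjusted p = 0.0348 and 0.0281).

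**Figure D4:**
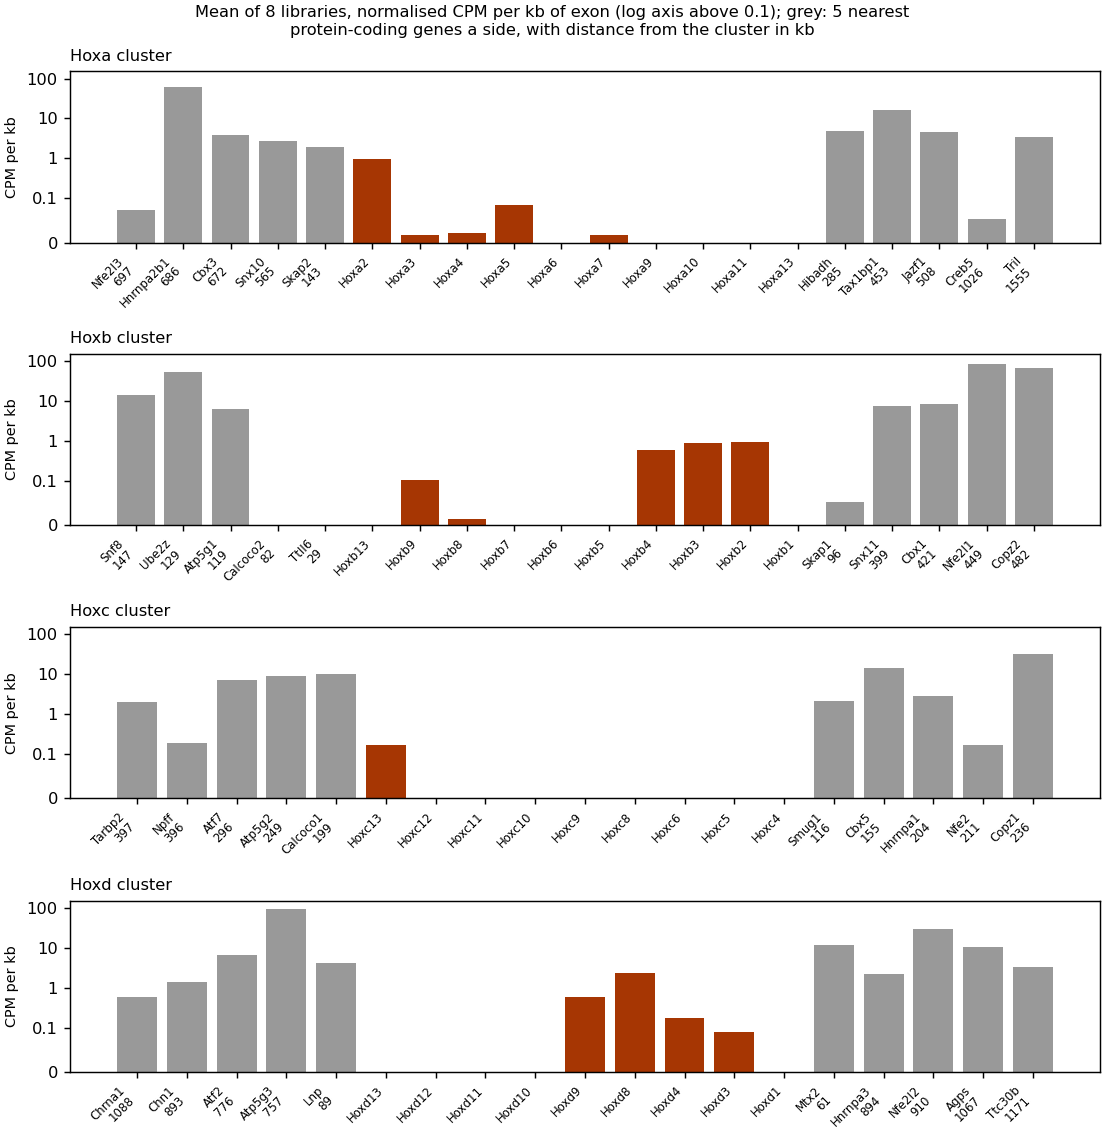
Mean normalised CPM per kb of exon over the 8 libraries (vertical axis, log scale above 0.1) for Hox genes of each cluster in chromosomal order (brown) and the 5 nearest protein-coding genes a side (grey, with the distance from the cluster in kb). Most grey bars stand above 1, and Hoxd8 at 2.37 is the only brown bar that does.

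Most factors that mark skull mesenchyme were more abundant than any Hox gene. Of 33 transcription factors of the skull vault and cranial neural crest, 32 had reads, 29 had at least 10, and 21 stood above Hoxd8 per kb. Prrx2 led at 131 normalised CPM per kb, with Twist1 at 81.6, Prrx1 at 71.1, Six2 at 57.7 and Msx2 at 52.4. Prrx1 and Prrx2 are factors of craniofacial and limb mesenchyme, and Twist1 and Msx2 guard the cranial sutures. Otx2, a forebrain and anterior head gene, had 0 reads. Of 25 tested, limma called 2 higher and 4 lower at day 12 in each genotype, beside 5.64% of all tested genes called lower in WT and 4.79% in Def6-/-, with median changes of -0.15 and -0.20 beside -0.0014 and 0.0098 over all tested genes. Msx2 fell from 310 ± 80.5 to 53.5 ± 1.35 normalised CPM in WT and from 287 ± 12.3 to 37.1 ± 6.65 in Def6-/- (limma adjusted p = 0.00019 and 8.03e-05). Prrx2 fell from 356 ± 99.5 to 181 ± 15.2 in WT and from 322 ± 24.6 to 171 ± 6.52 in Def6-/- (limma adjusted p = 0.0157 and 0.020). Dlx2, a gene of the jaw arches, fell from 16.1 ± 6.80 to 4.59 ± 1.21 in WT and from 18.6 ± 4.08 to 3.77 ± 0.104 in Def6-/- (limma adjusted p = 0.0170 and 0.00542). Dlx3, which acts in bone and tooth formation, rose from 0.197 ± 0.279 to 7.98 ± 1.14 in WT and from 0.717 ± 0.0504 to 18.8 ± 4.81 in Def6-/- (limma adjusted p = 0.000889 and 0.000371). By the genotype rule at day 12, Dlx3 and Dlx5 were higher and Msx2 lower in Def6-/- before adjustment (limma adjusted p = 1 for each). That rule called 1.40% of all tested genes.

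Of the other lists in the plot of levels by list, the 13 factors of the trunk and limbs had the lowest median. Their median level was 0.184 normalised CPM per kb, Cdx2, Cdx4 and Uncx had 0 reads, and 6 had at least 10. Of the 13, 3 stood above Hoxd8 per kb, Meox2 at 16.3, Meox1 at 3.42 and Pax1 at 2.83. Meox2, a mesoderm homeobox gene, rose from 6.19 ± 3.73 to 72.6 ± 0.826 normalised CPM in WT and from 6.47 ± 0.96 to 68.4 ± 18.8 in Def6-/- (limma adjusted p = 0.000473 and 0.000727). It was the 1 gene called of the 5 tested in each genotype. The shares of all tested genes called higher were 12.7% in WT and 12% in Def6-/-. Pax1, a gene of the sclerotome, had 10.6 ± 4.44 and 15.6 ± 0.207 in WT (limma adjusted p = 0.299). Shox2, a limb and jaw gene, was higher in Def6-/- at day 12 by the genotype rule, at 7.38 ± 4.05 against 2.13 ± 0.642 (limma adjusted p = 1).

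**Figure D5:**
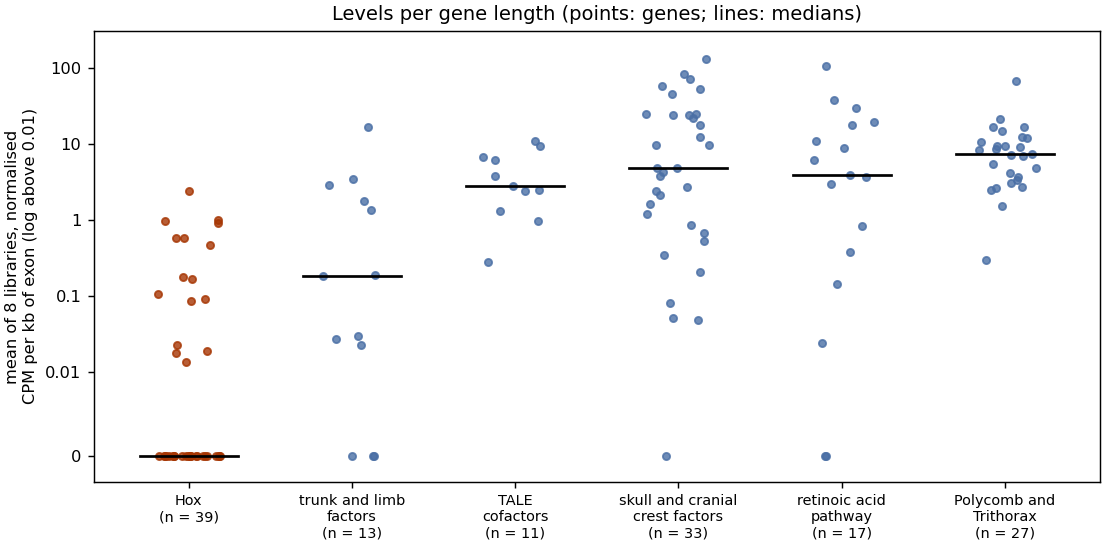
Mean normalised CPM per kb of exon over the 8 libraries (vertical axis, log scale above 0.01) for every gene of 6 lists; points are genes and lines are list medians. The median is 0 for the 39 Hox genes, 0.184 for the trunk and limb factors, 2.80 for the TALE cofactors and 4.72 for the skull factors.

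The partners and regulators of Hox proteins were measured beside them. All 11 TALE genes had at least 10 reads, and Pbx2 held 43.2 ± 7.61 normalised CPM in WT day 0 and 41.9 ± 7.73 in WT day 12. Among all tested genes, 12.7% were called higher and 5.64% lower at day 12 in WT, and 12% and 4.79% in Def6-/-. Of 10 TALE genes tested, limma called 0 higher and 1 lower in each genotype. That 1 was Tgif1, a TALE repressor, which fell from 50.4 ± 14.8 to 22.7 ± 0.454 in WT and from 53.6 ± 15.1 to 24.2 ± 5.25 in Def6-/- (limma adjusted p = 0.0331 and 0.0329). The list median was 0.11 in WT and 0.19 in Def6-/-.

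All 27 Polycomb and Trithorax genes had reads, 25 of them above Hoxd8 per kb. Of 26 tested, limma called 1 higher and 2 lower in WT and 0 higher and 1 lower in Def6-/-, with median changes of -0.03 and -0.10. These shares called lower are near the 5.64% and 4.79% of all tested genes, so the members below are single genes and no result about the list. Ezh2, the methyltransferase that writes the Polycomb mark on histone H3, fell from 34.4 ± 6.26 to 14.7 ± 2.91 normalised CPM in WT (limma adjusted p = 0.0277), and was 28.8 ± 10.4 and 19.9 ± 2.03 in Def6-/- (limma adjusted p = 0.349). Eed, a subunit of the same complex, fell in WT from 64.4 ± 34.6 to 26.0 ± 5.91 (limma adjusted p = 0.0458, and 0.364 in Def6-/-), while Jarid2, an accessory subunit, rose from 8.59 ± 4.34 to 23.0 ± 5.35 (limma adjusted p = 0.0293, and 0.428 in Def6-/-). Suz12, another core subunit, fell in Def6-/- from 59.5 ± 0.114 to 33.5 ± 2.04 (limma adjusted p = 0.0446, and 0.236 in WT). No interaction of these genes was called. Cbx8 was the 1 gene called between genotypes at day 12, at 5.86 ± 0.43 in Def6-/- and 10.8 ± 0.513 in WT (limma adjusted p = 1). The genotype rule called 1.40% of all tested genes there.

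In the retinoic acid pathway, 15 of 17 genes had reads. Of 12 tested, limma called 2 higher and 1 lower in WT and 2 higher and 0 lower in Def6-/-, with median changes of 0.42 and 0.35. Among all tested genes, 12.7% were called higher and 5.64% lower in WT, and 12% and 4.79% in Def6-/-. The genes below are thus single genes and no result about the list. Aldh1a2, the main enzyme of retinoic acid synthesis in the embryo, rose from 0.374 ± 0.0294 to 16.1 ± 2.09 normalised CPM in WT and stood at 18.1 ± 6.42 in Def6-/- day 12, with 0 reads in both Def6-/- day 0 libraries (limma adjusted p = 0.000291 and 0.000149). Crabp1, a binding protein of retinoic acid, rose in WT from 49.2 ± 46.6 to 147 ± 10.4 (limma adjusted p = 0.0438, and 0.0697 in Def6-/-), and Aldh1a1 rose in Def6-/- from 10.3 ± 2.31 to 26.0 ± 1.9 (limma adjusted p = 0.0215, and 0.0587 in WT). Rdh10, which makes the precursor retinal, fell in WT from 16.2 ± 0.485 to 7.85 ± 0.146 (limma adjusted p = 0.0392, and 0.819 in Def6-/-). Cyp26b1, which degrades retinoic acid, was 90.2 ± 62.3 and 107 ± 0.393 in WT (limma adjusted p = 0.526), and Cyp26c1 and Stra6 had 0 reads. The receptors Rarg and Rxra were among the 3 highest genes of the list, at 179 ± 40.0 and 129 ± 31.8 in WT day 0. No gene of the TALE or retinoic acid lists was called between genotypes, where 2.30% of tested genes were called at day 0 and 1.40% at day 12.

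Markers of other cell types also differed between the times. All 16 macrophage markers had reads, and their summed level was 275 to 459 normalised CPM in WT day 0, 3506 to 6890 in WT day 12, 219 to 340 in Def6-/- day 0 and 3851 to 4318 in Def6-/- day 12. limma called 15 of the 16 higher at day 12 in WT and 14 in Def6-/-. Within each genotype at day 12, replicate 1 had both the higher macrophage sum and the higher Hox sum. The macrophage sums were 6890 and 3506 in WT and 4318 and 3851 in Def6-/-, and the Hox sums were 36.2 and 26.8 normalised CPM in WT and 40.2 and 26.5 in Def6-/-. The 2 libraries with the most macrophage signal were thus the 2 with the most Hox signal, in the other order. At day 0 the match held in WT, where replicate 1 had both higher sums, and was reversed in Def6-/-. There replicates 1 and 2 had macrophage sums of 219 and 340, and Hox sums of 9.78 and 7.49 normalised CPM. Osteoblast marker sums at day 12 were 95495 and 112515 in WT and 133720 and 116083 in Def6-/-, so replicate 1 was higher in Def6-/- alone. Adipocyte marker sums at day 12 were 311 and 334 in WT and 427 and 439 in Def6-/-, so replicate 2 was higher in both. Each such order rests on 2 libraries a group and was not tested. Of 13 osteoblast markers limma called 8 higher in WT and 9 in Def6-/-, led by Ibsp, Alpl and Bglap, and none lower. Of 6 tested adipocyte markers it called 5 and 6 higher, and 4 of them were higher in Def6-/- at day 12 by the genotype rule. That rule called 1.40% of all tested genes in either direction, and 0 of the adipocyte markers passed after adjustment. Endothelial markers summed to 7.77 to 12.9 at day 0 and 16.9 to 20.5 at day 12, with Tie1 and Emcn at 0, and 1 of 2 tested was called higher in WT and 0 in Def6-/-. Skeletal muscle markers summed to 2.83 to 14.3 at day 0 and 4.52 to 6.7 at day 12, with Myod1, Myf5 and Myf6 at 0 and neither of 2 tested called. Cartilage markers summed to 1905 to 3761 at day 0 and 1033 to 1492 at day 12, with 1 of 4 tested called higher and 1 lower in WT and 2 and 2 in Def6-/-. Neural markers summed to 43.8 to 62.4 and 9.21 to 18.8, with Snap25 at 0 and Tubb3, the 1 tested, lower in both genotypes. The part of these cells in the higher Hox levels at day 12 was not tested.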

How the data were processed

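RNA of 8 libraries was analysed. The authors selected poly-A RNA, trimmed reads with fastp, used HISAT2 for alignment to mm10 and HTSeq for counting, and deposited CPM from edgeR, per the submitters' processing notes. Versions, annotation and strand setting are not given in the sources used here. The deposited CPM are relative to all reads that HTSeq handled, of which 28.8% to 35.3% lay on genes. They are whole multiples of 1 read (tolerance 0.01 read) for 99.957% of 114821 positive values, Hox genes included, and reads were recovered from these steps.

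Deposited CPM were rescaled to reads on genes with TMM factors ("normalised CPM"). The log2(CPM + 1) values of all 8 libraries were fitted with 4 group means in limma 3.58.1 (lmFit, and eBayes with its trend option; R 4.3.3). The 12348 genes whose deposited CPM averaged 1 or more in any group were tested, with Benjamini-Hochberg adjustment over all of them. Calls over time used an adjusted p under 0.05, and calls between genotypes an unadjusted p under 0.05 with more than 1.2-fold. A count test had been planned, and edgeR 4.0.16 and DESeq2 1.42.0 on recovered reads were run as alternatives. Ratios of reads carry exact (Clopper-Pearson) intervals. The limma fit and the edgeR test without a filter were tried on simulated data, for day 12 against day 0 in each genotype. The genotype comparisons, the interaction, DESeq2 and the exact intervals were not.

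Members with at least 10 reads were described singly, and some items are not reported here. Of the lists (TALE, skull, trunk and limb, Polycomb and Trithorax, retinoic acid, osteoblast, macrophage, endothelial, skeletal muscle, adipocyte, cartilage, neural) the 3 genes of highest mean and up to 3 called with the smallest p in a comparison could be named, and Twist1 and Six2, and the genes at 0 were named after their values were seen. Positions and exon lengths are from GENCODE M21 and sequences from RefSeq (GRCm38.p6). The members and lists were chosen with earlier results of these data known.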

Additional observations from a re-analysis of the deposited data

How the results depend on the processing

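Each of the 5 tested genes kept its higher level at day 12 in both genotypes under every alternative run. Hoxa2, Hoxb2, Hoxb3 and Hoxb4 passed the filter through day 12 alone, so the filter favoured this direction. The runs also reuse the same libraries, so the shared direction is no further support for a change. They gave 180 values: 145 stayed on their side of the threshold, 20 lost significance and 15 gained it. Of the 39 Hox genes, 16 were detected, 10 with at least 3 reads in 1 library, and 14 to 16 when a library was left out. The WT count of 1 called gene became 2 with a pseudocount of 5, 2 on the CPM as deposited, 2 with edgeR without a filter, 5 in the average over both genotypes and 0 to 3 when a library was left out, and the Def6-/- count of 3 became 5 in that average, 0 to 4 when a library was left out, and 2, with Hoxa2 lost, with pseudocounts of 0.1 and 5, on the CPM as deposited, with edgeR with and without a filter and with DESeq2. Between genotypes 0 became 2 at day 12 (Hoxa3 higher and Hoxa5 lower, on 2 and 4 reads) and 2 for the interaction (Hoxa5 and Hoxc13) without a filter on low values, 1 for the interaction (Hoxc13) with edgeR without a filter, and 0 to 1 at day 0 when a library was left out. The cause was not tested beyond the smaller number of libraries or the larger number of genes. Replicate numbers are shared between groups, but same-numbered libraries deviated together with correlations of only 0.0881, 0.152, 0.327 and 0.0369, so they are not taken as pairs. With the number as a replicate block the count was 3 in WT, 2 in Def6-/- and 1 at day 0 between genotypes (Hoxb2, lower). The CPM as deposited, which lack TMM factors and are relative to all reads handled, moved the median of all genes from -0.0197 to 0.0987 for Def6-/- over WT at day 0. Depth and group size limit these values: groups have 2 libraries, and 10 reads or fewer stand behind the day 0 value of every Hox gene named here but Hoxd8.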

Other observations

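The deposited values of 9 genes include 49 that are not whole multiples of 1 read, although all other genes are within the tolerance. They are Acp5, Adgre1, Cd14, Csf1r, Ctsk, Fcgr3, Itgam, Itgb3 and Ptprc, markers of macrophages, osteoclasts or blood cells that no list used here contains, and they were named after their values were seen. Their deposited CPM lie between 0.233 and 9.54 in all 8 libraries, and the ratio of the day 12 mean to the day 0 mean is 0.524 to 2.31. Among the 16 macrophage markers of the list, whose values are whole, the same ratio is 12.3 for Cd68, 16.8 for Lyz2, 11.6 for C1qc and 29.1 for Mrc1, and Cx3cr1 alone is below 1, at 0.443. How the values of the 9 genes were made was not tested.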
